A study of Mus musculus with 19 samples.

Results

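The Cyp2d and Cyp2j families hold genes of cytochrome P450 enzymes of the hepatocyte. In liver with and without Raly, 10 genes of these families were examined (Cyp2d9, Cyp2d10, Cyp2d11, Cyp2d12, Cyp2d13, Cyp2d22, Cyp2d26, Cyp2d40, Cyp2j5 and Cyp2j6). Of these, RefSeq lists Cyp2d13 as a transcribed pseudogene. The genes were taken by symbol from the 24054 genes of the deposited RNA-seq table. All mice were of C57BL/6 background, carried floxed Raly alleles (Raly flox/flox), were fed chow and received an adeno-associated virus 4 weeks before liver was collected. In 3 L-RalyKO mice the virus was AAV8.TBG.Cre, which deletes exons 3 and 4 of Raly, and in 3 littermate controls, which the labels call wild type, it was AAV8.TBG.GFP. The TBG promoter is active in hepatocytes, so that other liver cells keep the floxed gene. The methods give the mice as male unless specified otherwise, and no age was found for these animals. The comparison asks whether loss of RALY, an RNA-binding protein of the hnRNP family, alters the level of these genes.

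Cytochrome P450 enzymes of these families sit in the membrane of the endoplasmic reticulum and use a heme iron to insert oxygen into their substrates, with electrons passed on by the reductase POR and by cytochrome b5. The Cyp2d enzymes oxidise many drugs and steroids, and the mouse cluster is the counterpart of the human locus that holds CYP2D6, known for its large differences in drug metabolism between people. The Cyp2j enzymes are epoxygenases, which turn arachidonic acid into epoxyeicosatrienoic acids, lipid mediators that soluble epoxide hydrolase (Ephx2) breaks down.

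In the GENCODE vM1 annotation of NCBIM37 (mm9, the build named in the methods) the Cyp2d rows of the table form a cluster on chromosome 15 between 82200958 and 82624675 (424 kb), and the Cyp2j rows form a cluster on chromosome 4 between 95694225 and 96330845 (637 kb). Cyp2d9 lies at 82282807 to 82287257 on the + strand, Cyp2d10 at 82233276 to 82237624 on the − strand, Cyp2d26 at 82620537 to 82624675 on the − strand and Cyp2d22 at 82200958 to 82210690 on the − strand. Cyp2j5 lies at 96295464 to 96330845 and Cyp2j6 at 96182829 to 96220352, both on the − strand. Cyp2d13, which RefSeq lists as a transcribed pseudogene, was not matched in GENCODE vM1 and has no position or length here.

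The stretch of coding sequence around the cysteine that binds the heme iron is shown because it gives a view of how alike these genes are, and because reads from alike stretches can be assigned to the wrong gene. It was found by translating the coding sequence of the longest annotated transcript and searching for the heme-binding signature of P450 enzymes. The codon of the cysteine is in capitals, and sequences are 5′ to 3′ on the coding strand.
Cyp2d9: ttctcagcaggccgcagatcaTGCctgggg
Cyp2d10: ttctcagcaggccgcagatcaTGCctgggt
Cyp2d11: ttctcagcaggacacagatcaTGCctgggg
Cyp2d40: ttctcagcaggccgtcgagcaTGTctgggt
Cyp2j5: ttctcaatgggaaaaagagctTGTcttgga
Cyp2j6: ttctcaatgggaaagcgagctTGCctggga

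In NCBIM37 these 30 coding bases cross the last intron of each transcript, between exons 8 and 9 in Cyp2d9 (chr15:82286896-82287025, + strand), Cyp2d10 (chr15:82233507-82233636, − strand), Cyp2d11 (chr15:82219755-82219891, − strand), Cyp2j5 (chr4:96296318-96297411, − strand) and Cyp2j6 (chr4:96184877-96190403, − strand), and between exons 5 and 6 of the shorter transcript annotated for Cyp2d40 (chr15:82590495-82590624, − strand). Cyp2d22 and Cyp2d26 have the same 30 bases as Cyp2d9, while Cyp2d12 differs from it at 1 base, Cyp2d40 at 5 and Cyp2j5 at 12. Over the whole coding sequence Cyp2d9 was 92.5% identical to Cyp2d10, 93.3% to Cyp2d11 and 78.6% to Cyp2d22, and Cyp2j5 was 78.9% identical to Cyp2j6. Of all stretches of 50 bases in the transcripts of Cyp2d9, 29.0% also occurred in a transcript of another gene. The share was 36.6% for Cyp2d10 (24.7% with Cyp2d11), 32.5% for Cyp2d11, 24.5% for Cyp2d40, 16.1% for Cyp2d12, 10.9% for Cyp2d26 and 6.04% for Cyp2d22. For Cyp2j5 and Cyp2j6 it was 0.174% and 0.422%. Only protein-coding transcripts were searched. Stretches of 50 bases within exons also occurred elsewhere on the same chromosome, at 38.8% for Cyp2d40, 38.0% for Cyp2d10 and 37.6% for Cyp2d11. This share was 27.3% for Cyp2d9, 19.9% for Cyp2d12, 9.55% for Cyp2d26 and 3.95% for Cyp2d22. Values of Cyp2d9, Cyp2d10, Cyp2d11, Cyp2d12 and Cyp2d40 are therefore uncertain where the counting could have split or moved reads between copies. Cyp2d13 could not be searched, so how far its values share this limit is unknown. The methods give paired reads longer than 50 bases, so these shares can overstate how many reads fit several copies. The share of such reads was not measured, and how they were counted is not given in the sources used here.

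The bases around the TATA box are shown for the Cyp2d genes with a promoter entry, because very similar promoters went with very different levels. The sequences are from RefSeq on GRCm38.p6, whose coordinates differ from those above. Capitals mark the letters TATAA and, before them, CAAAGNNCA, the core of a direct repeat of the kind bound by HNF4A.
Cyp2d9: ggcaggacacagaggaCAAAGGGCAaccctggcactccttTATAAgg
Cyp2d10: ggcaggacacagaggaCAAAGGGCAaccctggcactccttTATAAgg
Cyp2d11: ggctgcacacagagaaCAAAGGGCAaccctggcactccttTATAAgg
Cyp2d40: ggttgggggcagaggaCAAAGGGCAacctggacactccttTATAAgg
Cyp2d26: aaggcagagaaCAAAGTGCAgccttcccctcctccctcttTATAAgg

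These windows of 47 bases lie at chr15:82452311-82452357 (Cyp2d9, + strand), chr15:82407217-82407263 (Cyp2d10, − strand), chr15:82394057-82394103 (Cyp2d11, − strand), chr15:82764205-82764251 (Cyp2d40, − strand) and chr15:82794268-82794314 (Cyp2d26, − strand). The TATAA letters begin 26 bases before the annotated start in Cyp2d9, 29 in Cyp2d10 and Cyp2d26, 41 in Cyp2d11 and 89 in Cyp2d40. The windows of Cyp2d9 and Cyp2d10 did not differ, that of Cyp2d11 differed from them at 3 bases and that of Cyp2d40 at 8. Over the 250 bases before the start, the promoter of Cyp2d11 was 93.6% identical to that of Cyp2d9 in 234 aligned bases, that of Cyp2d10 85.0% in 246, that of Cyp2d40 80.2% in 187 and that of Cyp2d26 64.4% in 219.

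In those 250 bases CAAAGNNCA was found, on either strand, in 5 of the 7 members with an entry (all but Cyp2j5 and Cyp2j6) and in 5.49% of all 32851 promoters of the table. The 5 are related copies, not independent cases. TATAA was found in 6 of the 7 members and in 22.8% of promoters. CCAAT, the letters bound by NFY, the factor the study connects with RALY, was found in 4 of the 7 (Cyp2d11, Cyp2d26, Cyp2d40 and Cyp2j6) and in 33.8% of promoters. TTCNNNGAA, the letters bound by STAT5, was found in 0 of the 7 and in 7.02% of promoters. TATAA can overlap its own reverse complement TTATA, and a promoter was counted once for each motif. The motifs were chosen after the promoters had been read, and describe letters, not binding.

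Liver expressed these genes over a wide range. Levels between genes were compared per length, as the deposited value (CPM, that is reads scaled to the effective size of the library) divided by the kilobases of annotated exon. How the deposited reads were counted is not given, so these lengths may differ from those of the exons counted. In controls Cyp2d9, which hydroxylates testosterone and is higher in male than in female liver, came first at 975 ± 112 per kb (SD, n = 3 mice). It was followed by Cyp2d26 (635 ± 16.7), Cyp2d10 (484 ± 29.9), Cyp2j5 (266 ± 9.61), Cyp2d22 (126 ± 3.51), Cyp2d40 (47.9 ± 11.3) and Cyp2j6 (21.3 ± 1.53). No 2 neighbours among these 7 genes overlapped between control mice.

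Cyp2d12 (0.271 ± 0.105 per kb) and Cyp2d11 (0.177 ± 0.00919) came last of the members with a length, and they overlapped each other. Per kb, Cyp2d9 stood 5499 times above Cyp2d11 in controls and 3225 times in L-RalyKO liver, although their promoters and coding sequences are among the most alike. Because of the shared stretches, some of the few reads given to Cyp2d11 can come from its neighbours. The order of the 7 higher members was the same in both groups.

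**Figure D1:**
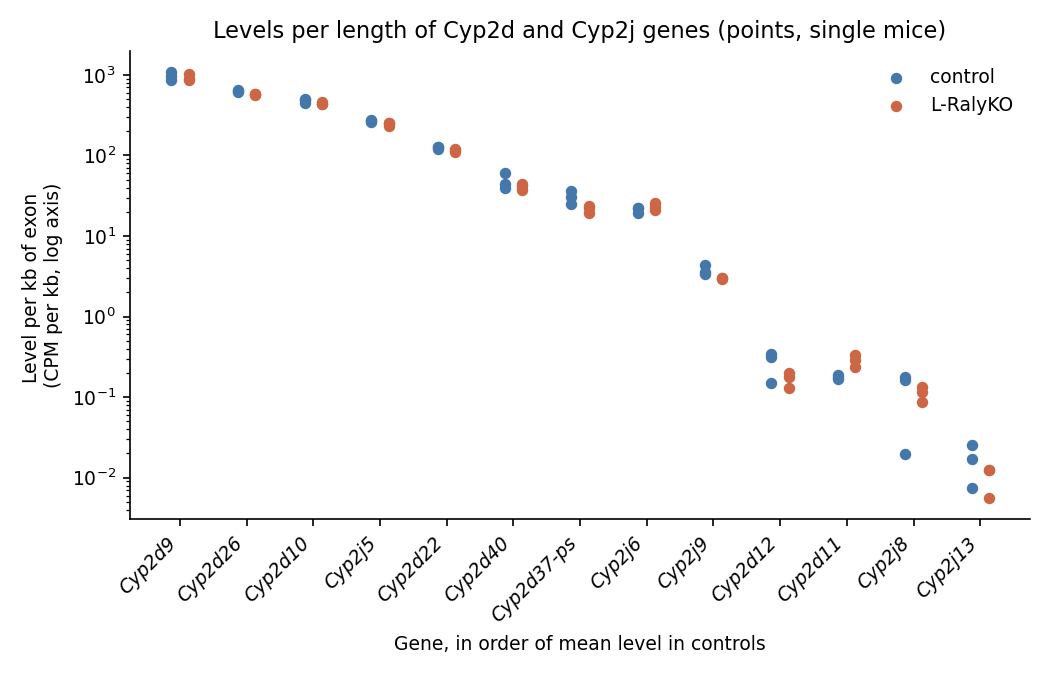
Level per kb of exon (CPM per kb, log axis) of each Cyp2d and Cyp2j gene with a length and a read in all 6 mice, in order of the control mean. Points are single mice, controls in blue and L-RalyKO in orange. Cyp2d9 is highest, and the control mean of Cyp2d11 lies 5499 times lower.

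The libraries held 28302983 to 37132274 recovered reads in controls and 34660211 to 38052705 in L-RalyKO mice, so that 1 read is worth 0.0263 to 0.0351. Raly itself had values of 50.1, 48.6 and 46.8 in controls and of 6.34, 6.61 and 7.39 in L-RalyKO mice (log2 difference −2.67, standard error 0.069, adjusted p = 6.92e-07, limma). Of 11580 genes tested, 758 had an adjusted p under 0.05 (6.55%), 389 higher (3.36%) and 369 lower (3.19%). The count was 332 without L-RalyKO 1, 437 without L-RalyKO 2, 491 without L-RalyKO 3 and 369 without control 1, and it reached 813 with another mouse left out. These background shares therefore depend on the mice used, and leaving out any mouse also leaves fewer to compare. Groups did not overlap in 3257 genes (28.1%), of which 1668 were higher in L-RalyKO mice (14.4%) and 1589 lower (13.7%). All 10 hepatocyte marker genes had a log2 difference above 0 (1 called, Hnf4a). Their summed value ran from 106790 to 116890 in controls and from 120680 to 121090 in L-RalyKO mice, with none at 0, and their part in the results that follow was not tested. In whole liver, fewer cells of a type and less RNA per cell cannot be told apart.

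Of the 10 genes, 8 had enough reads to be tested (mean value of at least 1). Of these, 0 were called by limma at an adjusted p under 0.05, beside 6.55% of all genes, with adjusted p values between 0.151 and 0.789. With so few genes, this count does not set the members apart from all genes. At an unadjusted p under 0.05 there were 2 of the 8, Cyp2d22 and Cyp2d26, close to the 22.7% of all genes at that threshold, and on the recovered reads edgeR's quasi-likelihood test and DESeq2 also called 0 and had 2 members at an unadjusted p under 0.05. The differences were small and mostly downward. The log2 difference was below 0 in 7 of the 8 and above 0 in Cyp2j6, with a median of −0.12 against 0.0044 over all genes tested, of which 48.8% were below 0. The groups did not overlap in 3 of the 8 (Cyp2d22, Cyp2d26 and Cyp2j5), all lower in L-RalyKO mice, beside 13.7% of all genes. The sum over the 8 Cyp2d members was 4041 ± 278 in controls and 3756 ± 152 in L-RalyKO mice (SD, n = 3 each, ratio 0.929), and that over Cyp2j5 and Cyp2j6 was 701 ± 27.3 and 661 ± 33.9 (ratio 0.944).

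**Figure D2:**
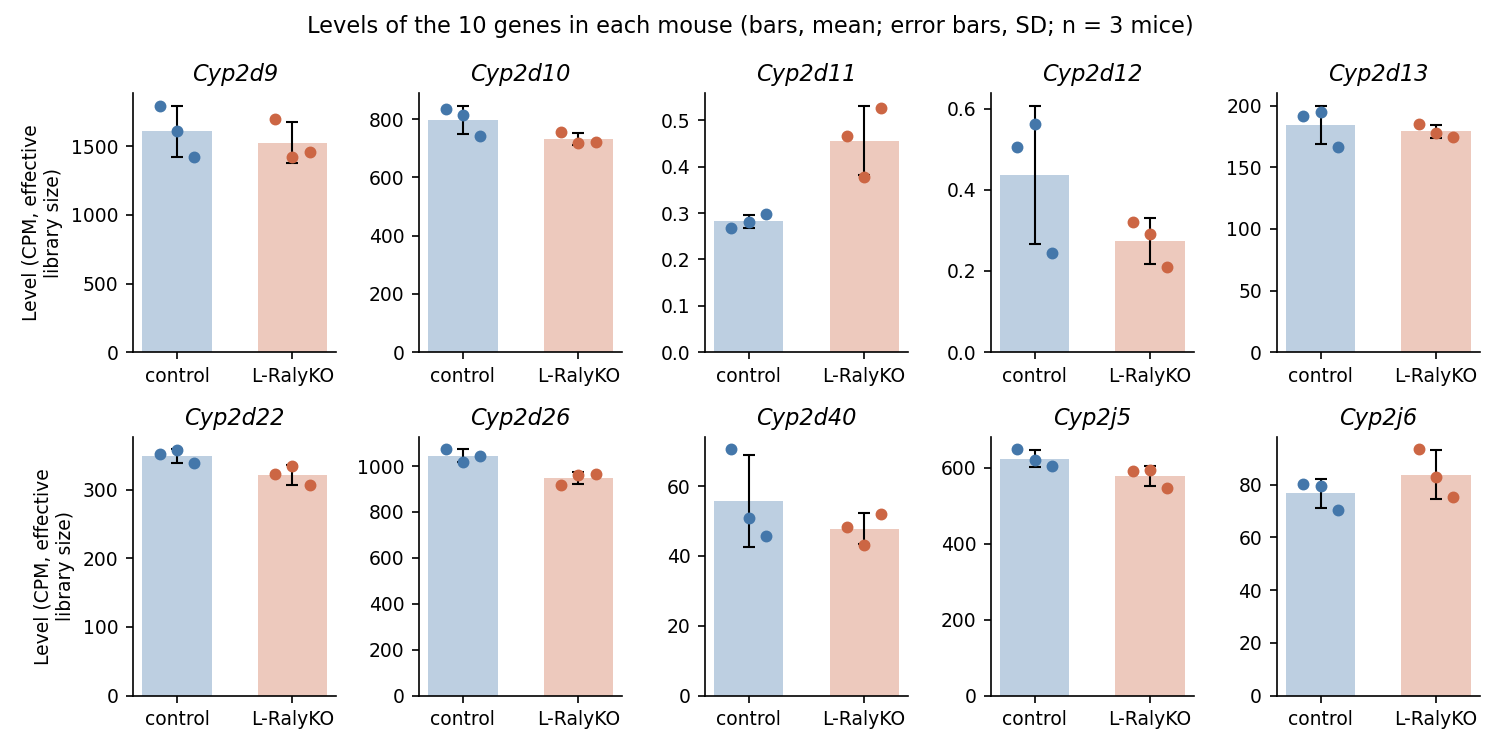
Deposited value (CPM with effective library sizes) of each of the 10 genes in every mouse, with control mice in blue and L-RalyKO mice in orange. Bars are means and error bars SD of 3 mice. The groups are apart in Cyp2d22, Cyp2d26 and Cyp2j5, where L-RalyKO mice are lower, and in Cyp2d11, which has 8 to 20 reads per library.

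Cyp2d26, the second of the Cyp2d genes by level, had the smallest p value of the members. Its values were 1073, 1018 and 1045 in controls and 916, 963 and 963 in L-RalyKO mice. Every L-RalyKO mouse was below every control, by little: the log2 difference was −0.14 (standard error 0.052, adjusted p = 0.151, limma), and the interval at the 95% level ran from −16.6% to −1.54%.

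Cyp2d22, often treated as the mouse counterpart of CYP2D6, had values of 351, 357 and 338 in controls and of 323, 335 and 306 in L-RalyKO mice. Here, too, the groups were apart, with the highest L-RalyKO mouse just under the lowest control. The log2 difference was −0.12 (standard error 0.051, adjusted p = 0.214, limma), with an interval from −15.1% to −0.155%. With 3 mice against 3, an exact two-sided permutation test of groups that are apart gives p = 0.1, the smallest it can give, for Cyp2d26, Cyp2d22 and Cyp2j5 alike.

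Cyp2d9, the most abundant member, varied more between mice of a group than between groups. Its values were 1793, 1615 and 1423 in controls and 1702, 1421 and 1460 in L-RalyKO mice. Control 3 was as low as the lower L-RalyKO mice, and L-RalyKO 1 was above control 2. The log2 difference was −0.07 (standard error 0.10, adjusted p = 0.716, limma), with an interval from −18.9% to 11.2%, and it turned to 0.0065 without control 1, while the lowest value with a mouse left out was −0.16, without control 3.

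Cyp2d10, a close copy of Cyp2d9 with the same 47 bases around the TATA box, was lower by 8.09% in the mean. Its values were 835, 813 and 741 in controls and 756, 717 and 723 in L-RalyKO mice, so that only control 3 fell among the L-RalyKO mice. The log2 difference was −0.12 (standard error 0.060, adjusted p = 0.277, limma), with an interval from −16.3% to 1.17%.

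Cyp2d40 had values of 70.5, 50.7 and 45.7 in controls and of 48.2, 43.1 and 52.0 in L-RalyKO mice. Control 1 stood above the other 5 mice, which lay close together, and the coefficient of variation was 23.5% in controls. The log2 difference of −0.20 (standard error 0.14, adjusted p = 0.466, limma) became −0.016 without control 1 and −0.32 without control 3. The pseudogene Cyp2d13 had values of 192, 194 and 166 in controls and of 185, 178 and 174 in L-RalyKO mice. Its groups overlapped, with a log2 difference of −0.04 (standard error 0.066, adjusted p = 0.789, limma), which was 0.0034 without control 2 and −0.11 without control 3.

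Cyp2d11 and Cyp2d12 had too few reads for the test. Cyp2d11 had 9, 8 and 11 reads in controls and 16, 13 and 20 in L-RalyKO mice (values 0.268, 0.281 and 0.297 against 0.465, 0.377 and 0.526). All L-RalyKO mice were above all controls, and without the filter on low genes limma gave a log2 difference of 0.18 on the log2(value + 1) scale, which understates changes at such levels (adjusted p = 0.113). Cyp2d12 had 17, 16 and 9 reads in controls and 11, 10 and 8 in L-RalyKO mice, and the groups overlapped (log2 difference −0.17, adjusted p = 0.377, limma without the filter).

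Cyp2j5, an arachidonic acid epoxygenase of liver and kidney and the main Cyp2j gene here, had values of 648, 620 and 604 in controls and of 592, 593 and 548 in L-RalyKO mice. The groups were apart, with L-RalyKO mice lower. The log2 difference was −0.11 (standard error 0.055, adjusted p = 0.270, limma), with an interval from −15.2% to 0.937%, and it was −0.07 without L-RalyKO 3.

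Cyp2j6 was the only tested member with a higher mean in L-RalyKO mice. Its values were 80.4, 79.4 and 70.4 in controls and 93.4, 82.9 and 75.1 in L-RalyKO mice, and L-RalyKO 3 lay below controls 1 and 2. The log2 difference was 0.12 (standard error 0.085, adjusted p = 0.437, limma), with an interval from −4.76% to 24.5%. It was 0.04 without L-RalyKO 1, 0.06 without control 3 and 0.20 without L-RalyKO 3. As a share of the summed value of the 10 members, Cyp2j6 made up 1.59% to 1.67% in controls and 1.75% to 2.02% in L-RalyKO mice, and Cyp2d9 32.1% to 35.5% and 32.8% to 36.9%.

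**Figure D3:**
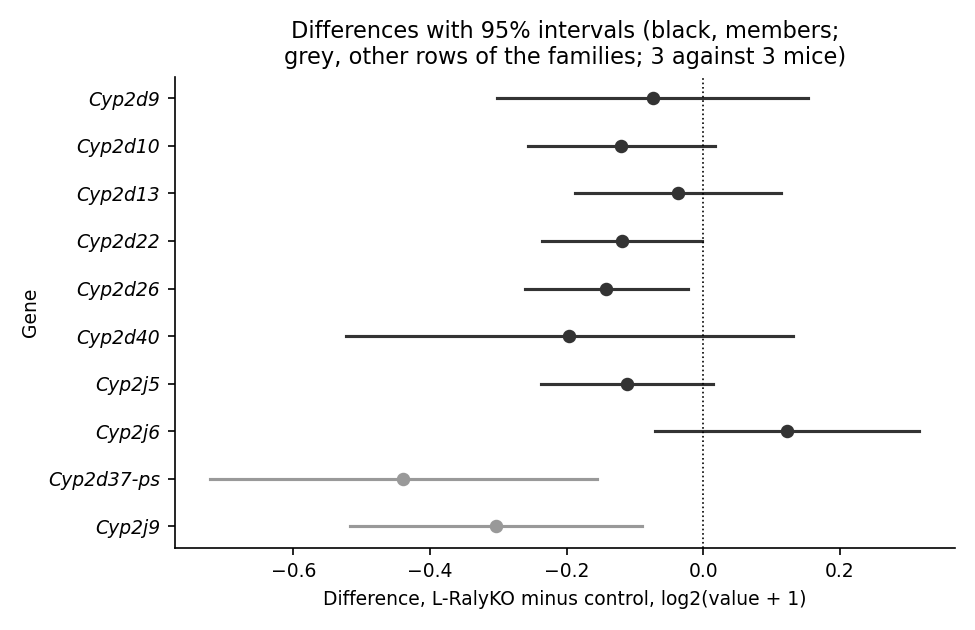
Log2 difference (L-RalyKO minus control, log2(value + 1)) of each tested Cyp2d and Cyp2j gene, with its 95% interval from limma (3 against 3 mice). Members are in black and the other rows of the families in grey. The intervals of Cyp2d22 and Cyp2d26 among the members, and of Cyp2d37-ps and Cyp2j9, end below 0, and none of the genes passed the adjusted threshold.

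The order of the control mice was similar, but not the same, across the tested members. Control 1 was the highest control in 6 of the 8 tested members and control 3 the lowest in 7. Control 2 was the highest in Cyp2d13 and Cyp2d22 and the lowest in Cyp2d26. How often all genes take this order was not counted. Among L-RalyKO mice, L-RalyKO 1, 2 and 3 were highest in 4, 2 and 2 members and lowest in 1, 3 and 4. Together the 10 members took 0.521%, 0.478% and 0.442% of all reads in controls 1, 2 and 3, and 0.449%, 0.431% and 0.430% in L-RalyKO mice. Control 3 had the most reads of the controls, and the part of depth in this order was not tested.

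The families have 7 other rows in the table. Cyp2d37-ps, a transcribed pseudogene in RefSeq, had values of 21.2, 18.2 and 14.8 in controls and of 11.5, 13.3 and 14.1 in L-RalyKO mice. Per kb it stood above the member Cyp2j6 in controls (30.6 ± 5.41). That order rests on its short annotated exon length of 590 bases, against 3605 for Cyp2j6. Before division by length its control mean was the lower (18.1 against 76.7). The groups were apart, with a log2 difference of −0.44 (standard error 0.12, adjusted p = 0.0737, limma). The adjusted p was 0.0100 with DESeq2 and 0.0193 without control 3, and between 0.0100 and 0.210 over all alternatives. Cyp2j9 had values of 12.1, 11.2 and 14.5 in controls and of 10.2, 10.1 and 9.68 in L-RalyKO mice, also apart (log2 difference −0.30, standard error 0.094, adjusted p = 0.0953, limma). Cyp2j8 had 1 to 10 reads in a library, Cyp2j13 1 to 4, Cyp2d34 and Cyp2j11 at most 1, and Cyp2j12 had 0 in all 6, where 3 reads would give a value of 0.0789 to 0.105.

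Among the genes whose values over the 6 mice were most like those of Cyp2d9 were Crat and Dph7 (root mean square difference of centred log2 values 0.046 to 0.051). Those most like Cyp2j5 were Tmx2, Rabl3 and Txnl4a (0.011 to 0.015). Their own log2 differences lay between −0.15 and −0.10, and none was called.

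Genes of proteins that serve P450 enzymes were examined at the RNA level. Of 8 tested redox partners, 2 rose and 1 fell, beside 3.36% and 3.19% of all genes. Por, the reductase that feeds electrons to all microsomal P450 enzymes, had values of 546, 631 and 672 in controls and of 948, 966 and 874 in L-RalyKO mice. The groups were far apart, with a log2 difference of 0.60 (standard error 0.081, adjusted p = 0.00531, limma). Fdx1, the ferredoxin of mitochondrial P450 enzymes, rose (56.6 ± 3.73 to 71.5 ± 2.23, adjusted p = 0.0148, and 0.0539 without L-RalyKO 2). Pgrmc2, a heme-binding membrane protein, fell (78.7 ± 3.11 to 61.4 ± 5.04, adjusted p = 0.0185, with 0.0686 without control 1 and 0.0552 without L-RalyKO 1). None of the 12 genes of heme synthesis and breakdown was called by limma. The 2 most abundant were Alas1, the first and rate-limiting enzyme (780 ± 309 to 1015 ± 115, adjusted p = 0.309, and 0.0259 without control 3), and Cpox (220 ± 13.1 to 213 ± 13.4, adjusted p = 0.740).

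Regulators known to act on P450 genes were examined next. Of 21 tested, 3 rose and 0 fell, beside 3.36% and 3.19% of all genes, with a median log2 difference of 0.06. Hnf4a, a nuclear receptor that keeps hepatocyte genes on, had values of 520, 542 and 680 in controls and of 900, 809 and 829 in L-RalyKO mice. Its groups were apart, with a log2 difference of 0.55 (standard error 0.099, adjusted p = 0.0155, limma), and the adjusted p was 0.0509 without control 1, 0.0510 without control 2 and 0.0617 without L-RalyKO 1. Foxa2, a pioneer factor of liver, rose (14.6 ± 1.79 to 27.7 ± 5.91, adjusted p = 0.0126, and 0.0501 without control 1). Nr1i2, the xenobiotic receptor PXR, rose (93.9 ± 3.90 to 118 ± 2.0, adjusted p = 0.00725) and was called under every alternative. The CCAAT-binding subunits Nfya, Nfyb and Nfyc had log2 differences of −0.10, 0.06 and 0.01 (adjusted p = 0.534, 0.674 and 0.952, limma).

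**Figure D4:**
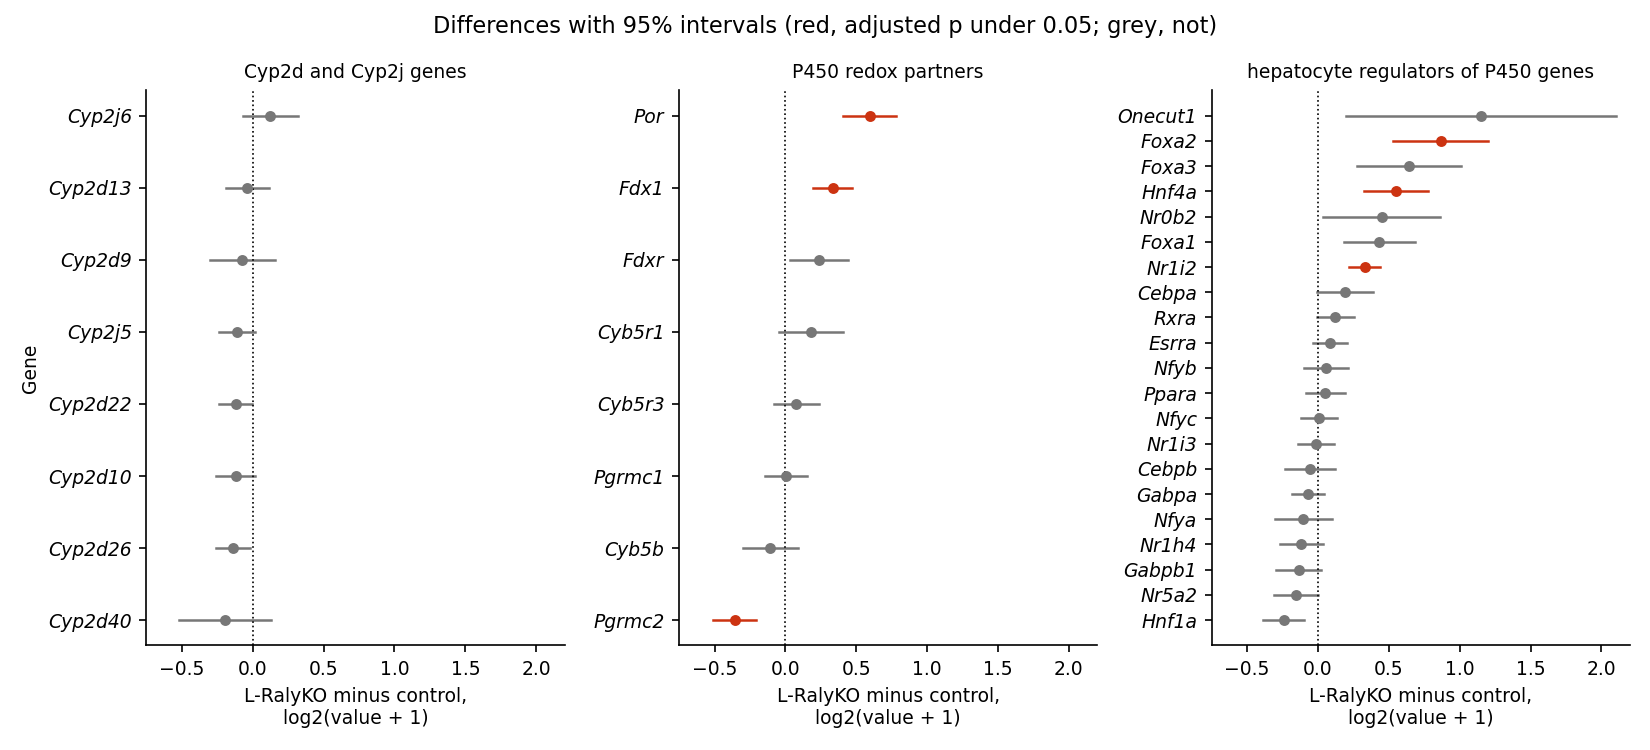
Log2 difference (L-RalyKO minus control, log2(value + 1)) with 95% interval for the 8 tested members (left), 8 redox partners (middle) and 21 regulators (right). Red marks an adjusted p under 0.05 (limma). No member is red, while Por, Fdx1, Hnf4a, Foxa2 and Nr1i2 are red and above 0 and Pgrmc2 is red and below 0.

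Genes that handle arachidonic acid, the substrate of the Cyp2j enzymes, and its products were set beside them. Of 18 tested, 4 rose and 1 fell, beside 3.36% and 3.19% of all genes. Fads2 and Fads1, the desaturases that make arachidonic acid, rose (296 ± 8.13 to 462 ± 18.5, adjusted p = 0.000537, and 405 ± 23.8 to 558 ± 19.1, adjusted p = 0.00372), as did Acsl4, which activates it (52.1 ± 4.63 to 71.4 ± 1.5, adjusted p = 0.00720). Cyp4f14 rose by a log2 difference of 0.32 (adjusted p = 0.0480), a call made in 5 of the 16 alternatives. Cyp4a14, a fatty acid hydroxylase, fell (918 ± 101 to 567 ± 90.9, adjusted p = 0.0138). Ephx2, which hydrolyses the epoxides that Cyp2j enzymes form, had values of 1126, 1038 and 1041 in controls and of 1041, 1040 and 1047.5 in L-RalyKO mice (log2 difference −0.03, adjusted p = 0.772, limma).

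Cyp2d9 is a male-biased gene under the control of growth hormone, so genes of that system were set beside it. Of 13 tested genes of growth hormone signalling, 3 rose and 1 fell, beside 3.36% and 3.19% of all genes, which also stand beside the counts of sex-biased genes that follow. Cish, a feedback inhibitor that STAT5 induces, had values of 4.86, 3.93 and 11.7 in controls and of 34.4, 41.7 and 21.7 in L-RalyKO mice (log2 difference 2.18, standard error 0.35, adjusted p = 0.00981, limma) and was called under every alternative. Socs3 rose (adjusted p = 0.0214), Stat3 rose (adjusted p = 0.0372) and Stat5b fell (adjusted p = 0.0346), calls that were lost in 6, 8 and 6 of the 16 alternatives. Of 21 male-biased liver genes, 8 rose and 0 fell, with a median log2 difference of 0.43. Selenbp2 rose from 117 ± 35.9 to 410 ± 75 and Gstp1 from 869 ± 60.9 to 1423 ± 114 (adjusted p = 0.00216 and 0.00196, limma). Of 10 tested female-biased genes, 0 rose and 3 fell. Among them, Cyp2b9 had 65.2, 48.9 and 36.3 in controls and 0.873, 2.15 and 3.18 in L-RalyKO mice (adjusted p = 0.000406, limma). The call of the female-biased Abcd2 (adjusted p = 0.0475, limma) was lost in 9 of the 16 alternatives and that of the male-biased Serpina1e (adjusted p = 0.0464, limma) in 10. Several genes of these lists have near-identical copies, so that their own values are uncertain. Cyp2d9 itself was not called, as given above. Its difference from these genes was not tested.

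Among 35 genes of other P450 families, 5 rose and 6 fell, with a median log2 difference of 0.07. Cyp2b9 and its relative Cyp2b13, both of which fell and by more, were not in this list. The largest falls among its called genes were in Cyp26a1, which clears retinoic acid (9.60 ± 4.23 to 3.75 ± 0.895, adjusted p = 0.0349), Cyp46a1, a cholesterol hydroxylase (6.84 ± 1.73 to 3.06 ± 0.580, adjusted p = 0.0185), and Cyp2a22 (14.5 ± 2.03 to 7.19 ± 0.117, adjusted p = 0.00174, limma). The call was lost in 6 alternatives for Cyp26a1, in 3 for Cyp46a1 and in 0 for Cyp2a22. The share of called P450 genes in this list was 11 of 35, against 0 of the 8 tested members, beside 6.55% of all genes, and the difference between these shares was not tested.

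Markers of the position of hepatocytes in the lobule were also counted, beside 6.55% of all genes called. Of 10 pericentral markers, 1 rose (Cyp1a2) and 2 fell (Lgr5 and Tbx3). Their summed value was 11954 to 13168 in controls and 13130 to 14429 in L-RalyKO mice. Most of this sum was Cyp2e1, which was not called (8808.5 ± 525 in controls and 9605 ± 356 in L-RalyKO mice). Of 10 periportal markers, 1 rose and 0 fell, with sums of 6954 to 8385 and 10058 to 10507. The gene that rose was Pck1, an enzyme of glucose synthesis (3185 ± 382 in controls, log2 difference 0.78, adjusted p = 0.00312, limma). Without Pck1, a sum chosen after seeing the data, the ranges were 3961 to 4760 and 4657 to 5180 and overlapped. No gene was called among the tested markers of Kupffer cells (9), endothelium (10), stellate cells (10), cholangiocytes (4), lymphocytes (1) or red blood cells (7), and in each of these lists the range of the summed value in L-RalyKO mice overlapped that in controls.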

How the data were processed

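Livers of 3 L-RalyKO and 3 control mice were compared, while a legend of the study gives n = 4 per group for RNA-seq. The ATAC-seq and ChIP-seq samples were not analysed here. Libraries were stranded, and the methods name TopHat (v2.0.2) with mm9 as genome and Cufflinks 2.0.2 for FPKM. What the authors deposited is instead a scaled signal per gene, the CPM of its reads with the library size corrected by TMM factors and no division by length. How they were made is not given in the sources used here. In each column 100% of values were within 0.001 read of a whole number of reads, so reads could be recovered.

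Groups were compared with limma 3.58.1 (R 4.3.3, intensity trend, log2(value + 1), mean value of at least 1, Benjamini-Hochberg adjustment over all 11580 genes). This scale understates changes of low genes. Nothing states that mice came from separate litters or batches. The p values set differences against the spread between these mice, which limma moderates across genes. No pair of mice in a group shared a library (chi-square per degree of freedom 12.6 to 84.3). Control 1 stood apart from controls 2 and 3 (71.1 and 84.3), while controls 2 and 3 differed by 18.2. Fits were tested on simulated data.

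The members and all lists were chosen with earlier results of these data known. The genes named are the members, the other rows of both families, Raly, up to 5 called genes of each gene list with the largest change (or the 2 most abundant where none was called) and 3 profile neighbours each of Cyp2d9 and Cyp2j5. A gene that this rule names is not reported here. Ephx2, Nfya, Nfyb, Nfyc and the lobule markers Pck1, Cyp1a2, Lgr5, Tbx3 and Cyp2e1 were named outside this rule, after their values were seen. Alternatives were DESeq2 1.42.0, edgeR 4.0.16, limma voom, other scalings and filters, a pseudocount of 0.1, a replicate block and leaving out each mouse. Positions and lengths are from GENCODE vM1, and sequences were aligned with Biopython 1.88.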

Additional observations from a re-analysis of the deposited data

How the results depend on the processing

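Under all 16 alternatives 0 of the members tested passed an adjusted p of 0.05, and 0 to 4 had an unadjusted p under 0.05, where 17.8% to 23.9% of all genes did. The unadjusted count was 0 without control 1 and 0 without L-RalyKO 1, beside 18% and 18.2% of all genes. The log2 differences of 6 of the 8 tested members kept their sign throughout. Leaving out each mouse in turn moved Cyp2d9 between −0.16 and 0.0065, Cyp2d13 between −0.11 and 0.0034 and Cpox, a heme synthesis gene, between −0.094 and 0.0076. The cause was not tested. Over all genes, 484 passed instead of 758 where genes with at least 1 read were tested, the cause of which was not tested, and 332 to 813 passed with a mouse left out. DESeq2 gave 1088 and edgeR's quasi-likelihood test 728. With total count scaling 40.9% of the called genes were higher, against 51.3%, and the median over all genes shifted to −0.027. Same-numbered mice of the groups had correlations of 0.066, −0.024 and 0.020 in their deviations. Mice with different numbers had correlations between −0.088 and 0.060. With 3 mice in each group these values cannot settle whether the numbers pair the mice. With the replicate block 704 genes and 0 members passed. Depth limits Cyp2d11 and Cyp2d12, which had 8 to 20 reads per library.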
